A study of Mus musculus with 6 samples.

Results

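Neurotrophic factors are secreted proteins that keep neurons alive and shape their processes and synapses, and they act through receptors on neurons and glia. The genes described here are 9 of the 43383 rows of the expression table and were chosen by symbol: the ligands Bdnf, Ntf3, Gdnf, Cntf, Vegfa, Ptn and Mdk, and the receptors Ntrk2 and Gfra1. The cells were GFP-positive astrocytes sorted by FACS from the somatosensory cortex of male Aldh1l1-eGFP mice aged 4 weeks, in which the promoter of Aldh1l1, an enzyme of folate metabolism found in astrocytes, drives GFP. Upper-layer astrocytes (ULAs) came from layers II–IV and deep-layer astrocytes (DLAs) from layers V and VI of the same 3 brains, 1 library of each per brain, without any other treatment or allele. Libraries of the same replicate number were taken to come from the same brain. The dissection discarded layer I, the meninges, the corpus callosum and the tissue around the border of layers IV and V, so that these astrocytes are not represented.

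Each neurotrophin binds a Trk receptor tyrosine kinase, and BDNF binds TrkB, the product of Ntrk2. Cortical astrocytes are known for a truncated TrkB that lacks the kinase. GDNF binds GFRα1, which is held at the cell surface by a lipid anchor and signals through the kinase Ret or the adhesion molecule NCAM, whereas CNTF signals through CNTFRα, LIFR and gp130 to JAK kinases and STAT3. VEGF-A is best known as the growth factor of blood vessels, and pleiotrophin (Ptn) and midkine (Mdk) form a family of 2 heparin-binding growth factors.

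Pleiotrophin mRNA was the most abundant of the 9 and the only member that passed the test between layers: it was higher in the ULAs of 3 of 3 brains, by 1.49 ± 0.144-fold (ratio of RPKM, mean ± SD, n = 3 brains). Its call was lost in 4 of 11 other settings. Midkine mRNA lay on the opposite side, with each DLA value above each ULA value, and the receptors Ntrk2 and Gfra1 lay on the side of Ptn, but these 3 differences did not pass. Vegfa was at nearly the same level in both layers. Bdnf and Cntf were near the lower limit of the test, Ntf3 was above 0 in 1 library only, and Gdnf was listed at 0 in all 6. Values are RPKM, reads scaled to mRNA length and to library depth, and the test compared log2(RPKM + 1) between layers within brains (limma with brain and layer as terms, Benjamini-Hochberg adjustment, threshold at an adjusted p of 0.05) in the 13999 rows with a mean of at least 1 RPKM. Of the 9 members 7 entered it, 1 rose in ULAs and 0 rose in DLAs. Over all rows tested, 0.714% were called higher in ULAs (100 rows), 0.914% higher in DLAs (128 rows) and 1.63% in either direction. Without adjustment, 2 members had a limma p under 0.05 on the ULA side (Ptn and Ntrk2) and 1 on the DLA side (Mdk), as did 5.64% (790) and 10.8% (1505) of all rows tested. The median log2 fold change (ULA over DLA) was −0.01 over the 7 members and −0.03 over all rows tested.

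**Figure D1:**
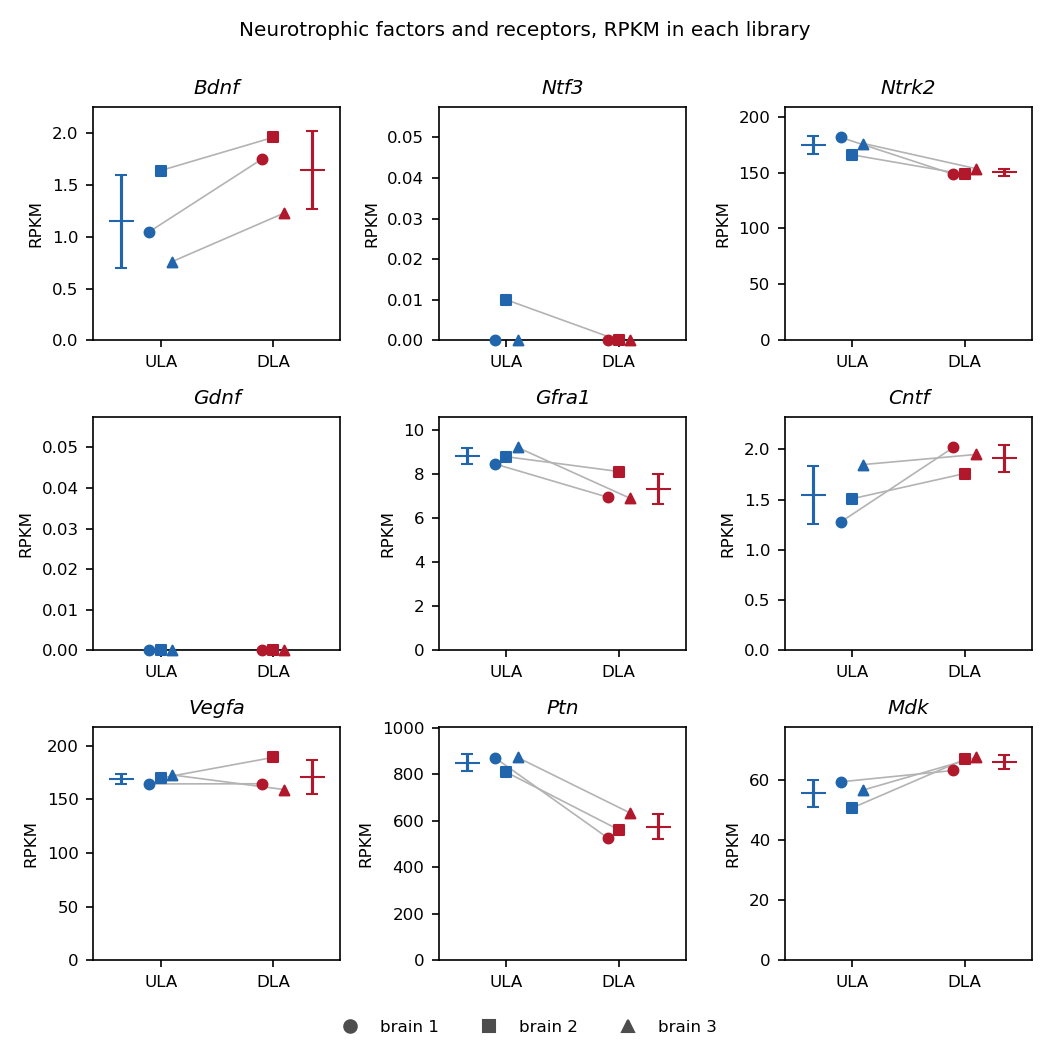
RPKM of each of the 9 genes (vertical axes start at 0 and differ between panels) in ULAs (blue) and DLAs (red). Symbols mark the 3 brains, grey lines join the libraries of a brain, and bars beside the points give mean ± SD (n = 3), left out for Ntf3 and Gdnf; the ULA and DLA points do not overlap for Ptn, Mdk, Ntrk2 and Gfra1.

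Library depth, inferred from the smallest steps between RPKM values, was 24.4 to 26.7 M (ULAs) and 19.7 to 29.6 M (DLAs). The 10 astrocyte markers summed to 11302 to 12233 RPKM in ULAs and 10685 to 11507 in DLAs. Aldoc alone averaged 4904 and 5348 RPKM, so that the sum says little about the lower genes. Of the 10, 0 rose in ULAs and 1 rose in DLAs, Gfap (means 11.7 and 23.5 RPKM, adjusted p = 0.0056). At an unadjusted limma p under 0.05, 2 lay on the ULA side and 2 on the DLA side. Markers of oligodendrocytes, the myelin-forming glia, differed between layers: 7 genes summed to 89.3, 86.6 and 175.3 RPKM in the ULAs of brains 1 to 3 and to 174.4, 200.1 and 272.5 in the DLAs, and 5 of the 6 tested rose in DLAs. The neuronal sum was 6.84 to 7.29 in ULAs and 4.90 to 7.13 in DLAs, with 7 of 8 genes under 1 RPKM in every library. Microglial markers summed to at most 2.09, endothelial ones to at most 2.97 and precursor markers to at most 1.01 RPKM. Mural markers summed to 16.0 to 23.1 in ULAs and 11.9 to 19.0 in DLAs, and 1 of the 2 tested (Rgs5) rose in ULAs. Fibroblast markers summed to 2.49 to 3.32 and 3.83 to 5.66, nearly all of it Col1a1, with Col3a1 at 0 throughout. These bulk values cannot tell fewer cells of a type from less RNA per cell.

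The neurotrophins were scarce. Bdnf, which supports synapses and plasticity, lies on mouse chromosome 2 (chr2:109514857-109567200 of mm9, plus strand; the row joins 4 RefSeq mRNAs on 5 exons, 5487 bases in all). Its ULA values in brains 1 to 3 were 1.05, 1.64 and 0.76 RPKM, and its DLA values 1.75, 1.96 and 1.23 RPKM. The DLA value was the higher in each brain, while brain 2 was high and brain 3 low in both layers, so that the groups overlapped. The ULA to DLA ratio was 0.685 ± 0.132 (SD, n = 3), and the log2 fold change (−0.31 ± 0.16, SE) did not pass (adjusted p = 0.36); with a pseudocount of 0.1 it was −0.52. Each library held between 112 and 256 Bdnf reads. Ntf3, which encodes neurotrophin-3, the preferred ligand of TrkC (chr6:126051430-126116762, minus strand, 3 exons), was listed at 0.01 RPKM in the ULAs of brain 2, the listed value of 1 read in that library after truncation to 2 decimals, first of reads scaled to depth and then of RPKM, and at 0 in the other 5 libraries.

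Ntrk2 encodes the receptor of BDNF and was far more abundant than that ligand in every library. It measured 181, 166 and 176 RPKM in ULAs and 148, 148 and 154 RPKM in DLAs of brains 1 to 3. Each ULA value lay above each DLA value, and the spread within a layer was small (174 ± 7.89 against 150.1 ± 2.92 RPKM, SD, n = 3). The log2 fold change was 0.21 ± 0.092 (SE, 95% confidence interval 0.01 to 0.42), which did not pass after adjustment (adjusted p = 0.29) and was 0.10 with a correction for mRNA length. The row (chr13:58907957-59231328, plus strand, 20 exons, 9871 bases) joins the mRNAs of the full-length and the truncated receptor, which the GENCODE annotation of GRCm38 gives as 821 and 476 residues. A single exon of 5009 bases, 50.7% of the row's length, belongs to the truncated form only, the 6 last exons (27.2%) belong to the full-length form only, and the other 13 exons (22.03%) are shared or lie at the 5′ end. Since the deposited value is a sum over the row, a difference in either form, or in their proportion, cannot be told apart. A gene on the opposite strand within the Ntrk2 locus shares 0 exonic bases with it.

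Of the 9 further neurotrophin ligands and receptors, 3 were tested and 0 changed. Ntrk3, the receptor of neurotrophin-3, was at 15.6, 13.2 and 9.77 RPKM in ULAs and 13.5, 11.9 and 13.0 in DLAs (log2 fold change −0.01, adjusted p = 0.97). Sorcs2, a sorting receptor that binds proneurotrophins, averaged 35.7 and 30.7 RPKM and was higher in the ULAs of 3 of 3 brains (0.21 ± 0.10, SE, adjusted p = 0.33). Ngfr, the shared low-affinity receptor p75, was at 0.01 to 0.07 RPKM. None of the 8 adaptors that link Trk receptors to their pathways changed in the adjusted test, and 0 had an unadjusted limma p under 0.05; the most abundant were Plcg1 (34.5 in ULAs and 30.4 in DLAs) and Shc3 (30.8 and 28.6). Among the 9 proteases that cleave proneurotrophins or activate such proteases, 3 were tested and Plat rose in ULAs. Plat, tissue plasminogen activator, which turns plasminogen into plasmin, measured 84.0, 71.9 and 52.8 RPKM in ULAs against 53.6, 54.4 and 30.4 in DLAs (0.60 ± 0.11, SE, adjusted p = 0.024). Brain 3 was the lowest in both layers and the groups overlapped, but the ULA value was the higher in each brain. The call was lost without brain 1 (adjusted p = 0.094), with brain left out of the model (0.46), without a filter (0.34) and without the intensity trend (0.081). Plg, the gene of plasminogen itself, was at 0.01 to 0.03 RPKM, and Pcsk7, a proprotein convertase, averaged 10.6 and 9.91 RPKM (0.09, adjusted p = 0.76).

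Gdnf, a survival factor of motor and dopaminergic neurons (chr15:7761011-7787575, plus strand, 3 exons, 3509 bases), was listed at 0 in all 6 libraries. After truncation, 1 read would have been listed as 0.01 RPKM in the ULAs of brain 1 and the DLAs of brain 2. In the remaining libraries 1 read would have been listed as 0, so that a listed 0 there does not exclude a read. For scale, 3 reads would have given 0.0289 to 0.0435 RPKM, a value that covers counting error only. Its receptor Gfra1 (chr19:58311182-58528956, minus strand, 10 exons, 3224 bases) was present at 8.44, 8.77 and 9.19 RPKM in ULAs and 6.94, 8.10 and 6.89 RPKM in DLAs. The lowest ULA value lay just above the highest DLA value. The ratio of ULAs to DLAs was 1.21 ± 0.126 (SD, n = 3), and the log2 fold change of 0.24 ± 0.12 (SE, 95% confidence interval −0.04 to 0.52) did not pass (adjusted p = 0.37). The values rest on 514 to 792 reads. A gene model on the opposite strand, Gm10007, shares 101 bases (3.13%) with the Gfra1 exons and was at 2.73 to 3.97 RPKM in ULAs and 1.2 to 2.46 in DLAs. The library kit does not mark the strand, so reads in the shared bases cannot be told apart.

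The 2 receptors through which GFRα1 signals were at opposite ends of the range. Ret was listed at 0 in every library (3 reads would be 0.0138 to 0.0208 RPKM), which does not exclude a single read lost to truncation. Ncam1, in contrast, measured 171, 164 and 148 RPKM in ULAs and 146, 141 and 133 RPKM in DLAs. Each ULA value exceeded each DLA value (0.20 ± 0.091, SE), without passing the test (adjusted p = 0.31). It was the only 1 of the 8 further GDNF family genes to enter the test. Nrtn, neurturin, a relative of GDNF, was next with 0.79 RPKM in ULAs and 0.90 in DLAs, under the filter. Of the unrelated pair MANF and CDNF, factors of the endoplasmic reticulum, Manf averaged 39.3 and 36.2 RPKM (0.14, adjusted p = 0.60) and Cdnf was at 0.03 to 0.14 RPKM.

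Cntf, a cytokine that supports motor neurons and is made by astrocytes, lies on chromosome 19 (chr19:12838018-12840122, minus strand, 2 exons, 1205 bases). It measured 1.28, 1.51 and 1.85 RPKM in ULAs and 2.02, 1.76 and 1.95 RPKM in DLAs, on 38 to 70 reads per library. The DLA value was the higher in each brain, by very little in brain 3, and the groups overlapped (log2 fold change −0.20 ± 0.16, SE, adjusted p = 0.57). The estimate was −0.07 with the length correction, −0.09 without brain 1 and −0.30 with a pseudocount of 0.1. Of its exonic bases, 979 (81.2%) are shared with a non-coding transcript of the same strand, U05342, whose own row stood at 3.68 to 5.84 RPKM. Reads of Cntf cannot be told apart from reads of that transcript over most of its length.

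Of the receptor chains of CNTF, Cntfr varied more between brains than between layers: 104, 29.2 and 108 RPKM in ULAs and 82.9, 30.3 and 171 RPKM in DLAs of brains 1, 2 and 3. Brain 2 was low in both layers, and the difference between layers did not pass (−0.13 ± 0.16, SE, adjusted p = 0.73). Lifr averaged 8.48 RPKM in ULAs and 6.45 in DLAs (0.35 ± 0.16, SE, adjusted p = 0.32), and Il6st, the gene of gp130, 5.88 and 5.32 RPKM (0.12, adjusted p = 0.68). Of the 10 further genes of the CNTF and LIF family 4 were tested and 0 changed, with 0 on the ULA side and 1 on the DLA side at an unadjusted limma p under 0.05 (5.64% and 10.8% of all rows tested). Downstream of these receptors, 1 of 5 tested JAK and STAT genes rose in ULAs. Stat3, the transcription factor that relays CNTF and LIF signals, measured 22.01, 20.9 and 20.8 RPKM in ULAs and 15.6, 15.0 and 12.6 RPKM in DLAs. The groups were well apart, but the test was at its threshold (0.53 ± 0.11, SE, adjusted p = 0.049) and 8 of 11 other settings put it on the other side, among them leaving out brain 1 (0.18) or brain 2 (0.054). Jak1 averaged 27.2 RPKM in ULAs and 22.6 in DLAs without overlap (0.26 ± 0.11, SE, adjusted p = 0.26).

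Vegfa is the gene of the main angiogenic growth factor (chr17:46153943-46169326, minus strand, 8 exons, 4173 bases, 6 RefSeq mRNAs joined). It measured 164, 170 and 173 RPKM in ULAs and 165, 189 and 159 RPKM in DLAs. The ULA values lay inside the range of the DLA values, of which brain 2 was the highest. The log2 fold change was −0.01 ± 0.097 (SE), with a 95% confidence interval of −0.23 to 0.20 (adjusted p = 0.96), and differences inside that interval were not resolved. Its sign turned with quantile normalization (0.0747) and without brain 2 (0.0584), neither of which passed.

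Among the 9 other VEGF ligands and receptors, 5 were tested and Vegfb rose in DLAs. Vegfb, a relative of VEGF-A that binds VEGF receptor 1, measured 27.1, 15.8 and 28.6 RPKM in ULAs and 57.6, 22.5 and 56.6 RPKM in DLAs. Brain 2 was low in both layers, and its DLA value was below the ULA values of the other two brains, so the groups overlapped although DLAs were higher in each brain (−0.84 ± 0.13, SE, adjusted p = 0.011). The call was lost with brain left out of the model (adjusted p = 0.47), without a filter (0.34) and with the length correction (0.075). Oligodendrocyte markers were also higher in DLAs, and their part in this difference was not tested. The signalling receptors were nearly absent, Kdr at 0 to 0.03 RPKM and Flt1 at 0 to 0.23 RPKM. The coreceptor Nrp1 averaged 15.2 and 14.1 RPKM (0.11, adjusted p = 0.74), and Nrp2 was at 0.32 to 0.93 RPKM.

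Ptn lies on chromosome 6 (chr6:36665663-36761361, minus strand, 5 exons, 2021 bases, 1 RefSeq mRNA) and ranked 75th among all rows by mean RPKM. Its ULA values in brains 1 to 3 were 871, 809 and 873 RPKM, and its DLA values 528, 562 and 634 RPKM. The lowest ULA library stood far above the highest DLA library, and the gap between layers was much wider than the spread within either (851 ± 36.2 against 575 ± 54.5 RPKM, SD, n = 3). The log2 fold change was 0.57 ± 0.095 (SE, 95% confidence interval 0.36 to 0.78, adjusted p = 0.016), on 22328 to 47115 reads per library. The call was lost without brain 1, where the estimate was 0.49 and the adjusted p 0.33, and also with brain left out of the model (adjusted p = 0.099), without a filter (0.39) and without the intensity trend (0.083). The estimate itself stayed between 0.49 and 0.65 under all 11 settings tried. Oligodendrocyte markers moved the other way, lower in ULAs. Markers of oligodendrocyte precursors summed to 0.50 to 1.01 RPKM in ULAs and 0.59 to 0.86 in DLAs. The part of either cell type in the Ptn difference was not tested. The mural marker Rgs5 was higher in ULAs, at up to 2.70 RPKM, and its part was not tested.

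Mdk, the other gene of the family (chr2:91769979-91772439, minus strand, 6 exons, 1305 bases), measured 59.3, 50.6 and 56.6 RPKM in ULAs and 63.0, 66.7 and 67.3 RPKM in DLAs. The groups did not overlap, but the margin in brain 1 was narrow. The log2 fold change was −0.24 ± 0.10 (SE, 95% confidence interval −0.47 to −0.01), and it did not pass after adjustment (adjusted p = 0.28). It was −0.12 with the length correction and −0.14 with quantile normalization. In each library Ptn was many times more abundant than Mdk. The ratio of their RPKM was 14.7, 16.0 and 15.4 in ULAs and 8.37, 8.43 and 9.42 in DLAs, without overlap between the layers. Ptn and Mdk each separated, in opposite directions, so that their ratio had to separate and adds no further result. Chrm4 on the opposite strand shares 8 exonic bases with Mdk and was under 1 RPKM. Oligodendrocyte markers were higher in DLAs, as Mdk was, and their part was not tested.

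**Figure D2:**
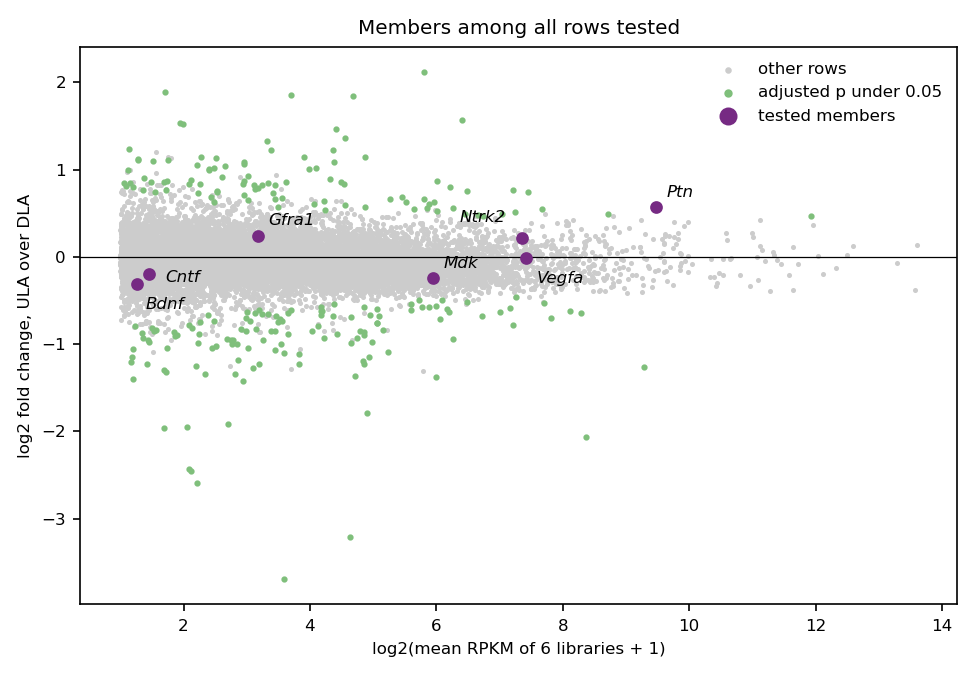
Log2 fold change (ULA over DLA, vertical axis) against log2 of mean RPKM + 1 (horizontal axis) for the 13999 rows tested. Rows past the threshold are green and the 7 tested members purple; Ptn stands at 0.57 among abundant mRNAs, and the other members lie between −0.31 and 0.24 within the cloud of rows.

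Counting only whether the libraries of the layers overlapped, Ptn, Ntrk2 and Gfra1 (3 of the 7 tested) had all 3 ULA values above all 3 DLA values, as did 6.59% of all rows tested (923 rows). Mdk alone had the reverse order, which 9.27% of all rows tested had (1298 rows). Bdnf, Cntf and Vegfa overlapped.

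Pleiotrophin binds the receptor phosphatase PTPRZ1, a large proteoglycan of glia, and heparan sulphate proteoglycans such as the syndecans. Ptprz1 was abundant, at 260, 269 and 206 RPKM in ULAs and 185, 151 and 185 RPKM in DLAs. Each ULA value exceeded each DLA value, with brain 3 showing the smallest gap, and the log2 fold change of 0.49 ± 0.12 (SE) did not pass (adjusted p = 0.093). Sdc2 averaged 144 RPKM in ULAs and 132 in DLAs (0.13, adjusted p = 0.54). Sdc3 was low and uneven, at 2.62, 1.86 and 2.17 RPKM in ULAs and 6.56, 1.71 and 3.53 in DLAs (−0.50 ± 0.20, SE, adjusted p = 0.26). Lrp1, an endocytic receptor of midkine, averaged 10.6 and 9.39 RPKM (0.14, adjusted p = 0.58), and the kinase Alk was at 0.28 to 0.71 RPKM, under the filter. Of the 10 genes of these receptors 7 were tested and 0 were called, while 2 on the ULA side and 1 on the DLA side had an unadjusted limma p under 0.05 (5.64% and 10.8% of all rows tested).

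**Figure D3:**
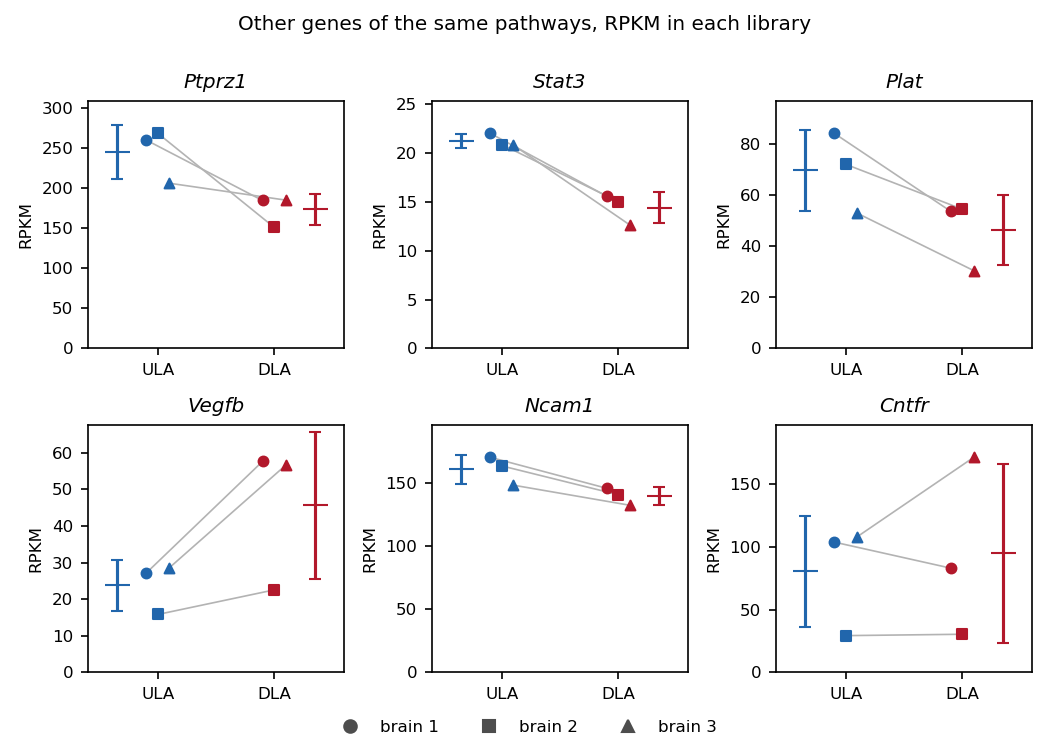
RPKM of 6 further genes of these pathways in ULAs (blue) and DLAs (red), with symbols for the 3 brains, grey lines joining the libraries of a brain, and bars for mean ± SD (n = 3). Ptprz1, Stat3 and Ncam1 do not overlap between layers, whereas Cntfr and Vegfb are low in brain 2 in both layers.

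Over all 9 lists, which hold 71 genes beside the members, 37 were tested and 34 lay under the filter. Of the 37, 2 rose in ULAs (Stat3 and Plat) and 1 rose in DLAs (Vegfb), together 8.11%, beside 1.63% of all rows tested. The log2 fold change was positive for 25 and negative for 12, with a median of 0.11 beside −0.03 over all rows. All 3 ULA values exceeded all 3 DLA values for 5 of the 37 (13.5%, Ncam1, Jak1, Stat3, Ptprz1 and Figf), beside 6.59% of all rows tested. The reverse held for 1 (2.70%, Pgf), beside 9.27% of all rows tested. Figf and Pgf, both VEGF family ligands, are named after their values were seen. The lists were written with earlier results of these data known, and the percentages are descriptions without a test of the lists. The shares called moved with the setting. With brain left out of the model, or without a filter, 0 pathway genes were called. Without brain 3, 4 pathway genes rose in ULAs and 1 in DLAs, and 431 and 695 of all rows did.

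**Figure D4:**
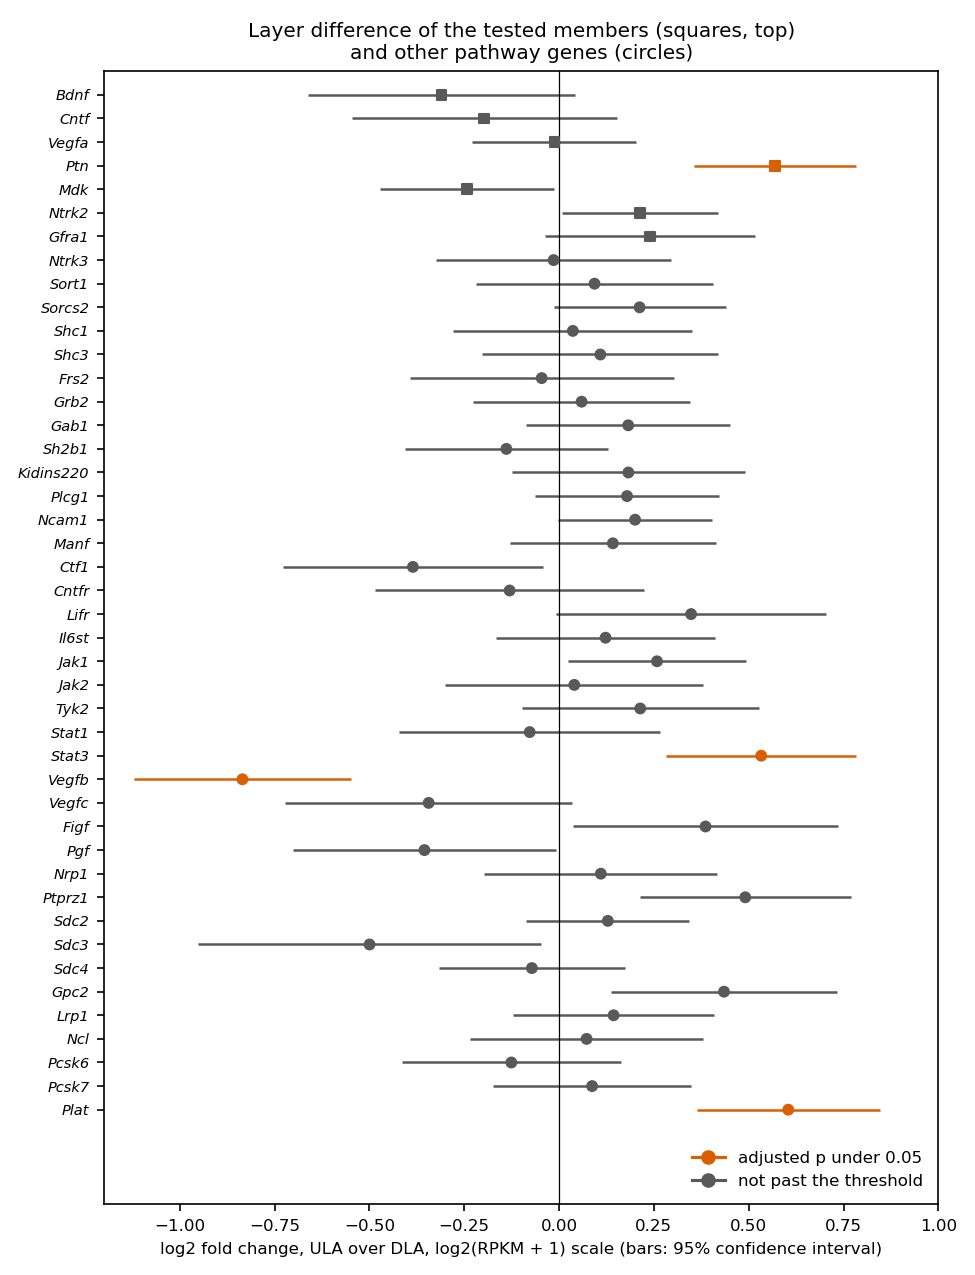
Log2 fold change (ULA over DLA, horizontal axis) with its 95% confidence interval for the 7 tested members (squares, top) and the 37 tested pathway genes (circles). Orange marks an adjusted p under 0.05, reached by Ptn, Stat3 and Plat on the ULA side and Vegfb on the DLA side.

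Ranked by mean RPKM, a scale per length of the whole row, the order was Ptn, Vegfa, Ntrk2, Mdk, Gfra1, Cntf, Bdnf, Ntf3 and Gdnf. A row that joins several mRNAs can be longer than each of them, and its RPKM can then understate the level. Of the Ntrk2 row, 50.7% belongs to the truncated form only and 27.2% to the full-length form only. Cntf shares 81.2% of its exonic bases with U05342. The ranks and ratios given here therefore describe RPKM of rows, and the true order of such genes is open. Ptn was 4.19 times as abundant as Vegfa, and its lowest library exceeded the highest of Vegfa. Vegfa and Ntrk2 were neighbours that did not separate (ratio of means 1.05): Vegfa was the higher in 1 of 3 ULA libraries and in 3 of 3 DLA libraries. Ntrk2 was 2.68 times as abundant as Mdk, Mdk 7.52 times as abundant as Gfra1, and Gfra1 4.66 times as abundant as Cntf, each without overlap in any library. Cntf and Bdnf did not separate either (ratio of means 1.24, Cntf the higher in 4 of 6 libraries). The most abundant members thus included 2 ligands that astrocytes secrete and 1 receptor, whereas 4 ligands were at 2.02 RPKM or less in every library.

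The 3 rows whose pattern over the 6 libraries lay nearest to that of Ptn, among 8911 rows with a mean of at least 5 RPKM, were Naaa, Nceh1 and Cryl1, with root mean square differences of 0.0563, 0.0671 and 0.0747 on the centred log2 scale. Naaa, an acid amidase of lysosomes, measured 76.7, 73.9 and 74.8 RPKM in ULAs and 44.9, 53.4 and 58.0 RPKM in DLAs, and passed the test as Ptn did (0.53 ± 0.11, SE, adjusted p = 0.045). Nceh1, a cholesteryl ester hydrolase, averaged 10.02 and 6.97 RPKM (0.47, adjusted p = 0.11), and Cryl1, a crystallin of sugar metabolism, 12.9 and 9.16 RPKM (0.45, adjusted p = 0.11). Likeness over 6 libraries is a description of these samples.

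**Figure D5:**
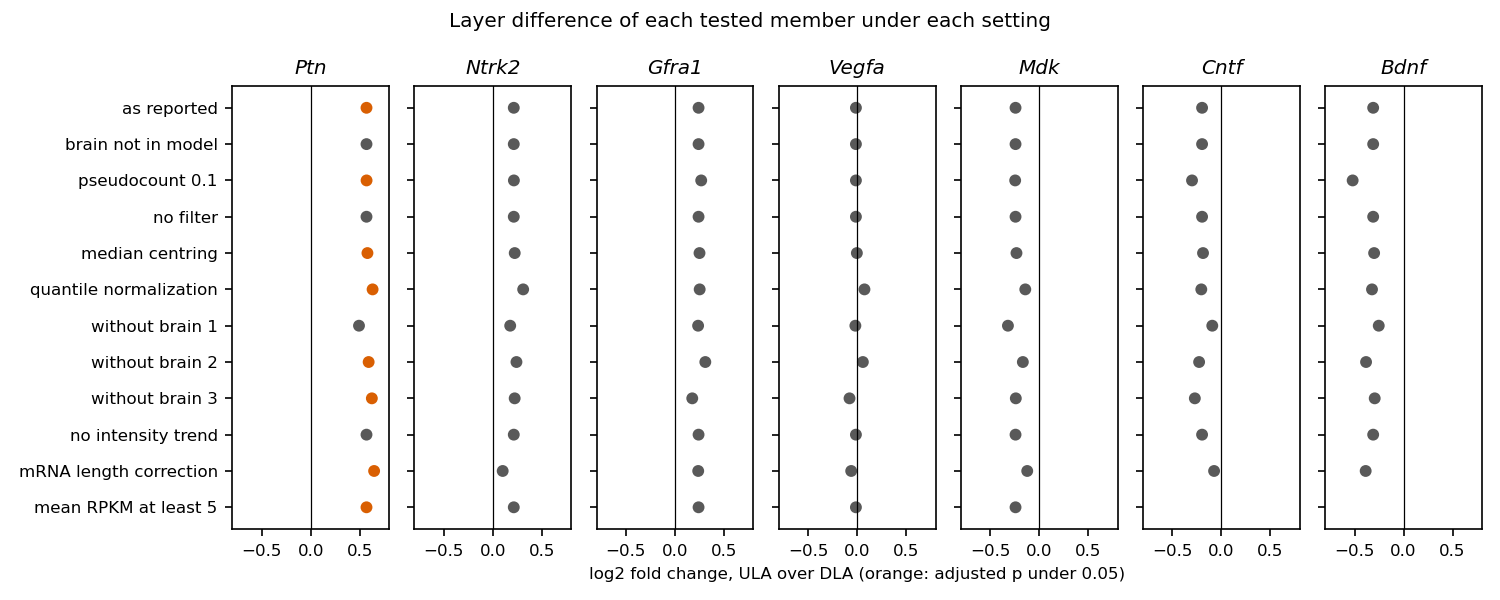
Log2 fold change (ULA over DLA, horizontal axes) of each tested member as reported and under 11 other settings (vertical axis), with orange marking an adjusted p under 0.05. Ptn lies between 0.49 and 0.65 throughout and is grey in 4 of the 11, Vegfa lies on both sides of 0, and the remaining members are grey in every setting; Bdnf and Cntf could not be tested at a mean of at least 5 RPKM.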

How the data were processed

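SMART-Seq v4 cDNA of sorted ULAs and DLAs from 3 brains was turned into 6 Nextera XT libraries, read on 1 side for 36 bases. RPKM values were deposited by the authors for 43383 rows, each joining the mRNAs of 1 symbol, on mm9 per the labels. The submitters' processing notes name bcl2fastq 1.8.4 and CASAVA 1.8.2, and the aligner and counting program are not given in the sources used here. Depth, 19.7 to 29.6 M reads per library, was that at which values up to 1 read per M in rows of up to 500 bases held whole reads. With reads per M and then RPKM both truncated to 2 decimals, 100% of those values allowed a whole number of reads within the truncation, against at most 89.1% at the next best depth.

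The 13999 rows averaging 1 RPKM or more were compared on log2(RPKM + 1), a scale that understates changes of low genes. The linear model of limma 3.58.1 (R 4.3.3) held brain and layer, and its spread was moderated by eBayes along an intensity trend (2-sided p-values, Benjamini-Hochberg adjustment). The replicate number was taken as the brain, since the study pairs its layers by brain, while the sample labels give replicate numbers only. Libraries of the same number deviated together (r across genes 0.42, 0.33 and 0.34, against −0.20 to −0.16 for different numbers). That correlation cannot tell a shared brain from another source shared by a number. Exact permutation cannot give a p under 0.25 with 3 pairs. Named were all 9 members, pathway genes that passed, the 2 most abundant of each of 9 lists, the signalling receptors of each pathway, the 3 rows nearest to Ptn, and some genes chosen after their values were seen; some list genes are not reported here. Members and lists were chosen with earlier results of these data known. The fit was tested on simulated data. The 11 alternatives dropped the brain term, the filter, the intensity trend or each brain in turn, raised the filter to 5 RPKM, lowered the pseudocount to 0.1, centred libraries on their medians, normalized by quantiles, or corrected for mRNA length by loess (span 0.5). Exon positions were read from the table and matched by length to GENCODE vM21 for Ntrk2, carrying no coordinates between builds. Python 3.11.15, pandas 2.3.3, numpy 2.4.6 and matplotlib 3.10.9 were used.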

Additional observations from a re-analysis of the deposited data

How the results depend on the processing

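Directions of the tested members held under the 11 alternatives (10 for Bdnf and Cntf, which the filter at 5 RPKM removed) apart from Vegfa, which turned from −0.01 to 0.0747 with quantile normalization and to 0.0584 without brain 2 (range with a brain left out −0.0777 to 0.0584). Ptn was the only member called under any of them. It was not called when brain was left out of the model (no replicate block, adjusted p = 0.099), without a filter (0.39), without brain 1 (0.33) or without the intensity trend (0.083), each of which gave 0 members higher in ULAs, and its adjusted p ranged from 0.00055 to 0.39. Over all rows, the counts higher in ULAs and in DLAs (100 and 128 as reported) became 23 and 18 without the brain block, 0 and 0 without a filter (1124 and 1675 at an unadjusted limma p under 0.05, with 27963 rows tested), 65 and 79 without the trend, and 74 and 70 with the length correction; leaving out a brain gave 96 to 431 and 121 to 695, the highest without brain 3. The ULA share of calls was 43.9% as reported, 57.3% with quantile normalization (138 and 103) and 56.1% without the brain block. Pathway genes called higher in ULAs (2 as reported) numbered 0 without the brain block, without a filter or without the trend, 1 with a pseudocount of 0.1, median centring or the length correction, and 0 to 4 with a brain left out. Those higher in DLAs (1 as reported) numbered 0 without the brain block, without a filter and with the length correction. The adjusted p ranged from 0.027 to 0.34 for Stat3, from 0.0059 to 0.46 for Plat and from 0.00021 to 0.47 for Vegfb. The cause of these changes was not tested. With 3 brains, differences of the size seen for Ntrk2, Mdk and Gfra1 were not resolved after adjustment over all rows, and Bdnf and Cntf rest on few reads.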
